A study of Mus musculus with 5 samples.

Results

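The transcripts of the odour-sensing cascade were followed through 4 regions of the adult mouse brain. The genes are Rtp1, Gnal, Gng13, Adcy3, Cnga2, Cnga4, Cngb1, Ano2, Omp and Stoml3. These 10 were taken by symbol from the 22071 RefSeq symbols of the deposited expression table, with the values of all transcripts of a symbol added. Poly(A) RNA came from male adult wild-type C57BL/6 mice, and no group carried a treatment or an allele that the others lacked. Microdissected, snap-frozen tissue gave 2 samples of the subventricular zone (SVZ) and 1 sample each of the olfactory bulb (OB), the dentate gyrus (DG) and the striatum (STR). The first 3 regions are the neurogenic tissues of the design and the striatum is the tissue without neurogenesis. The labels do not say how many animals gave each sample.

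In an olfactory sensory neuron, an odorant receptor in the cilia activates the G protein Golf, which switches on adenylyl cyclase 3. The cyclic AMP made there opens a cyclic nucleotide-gated cation channel, and the calcium that enters opens a chloride channel that enlarges the response. The cell bodies lie in the nasal epithelium, outside the brain, and only their axons reach the glomeruli of the olfactory bulb. The alpha subunit of Golf has a second well-known site of use, the projection neurons of the striatum, where it couples dopamine and adenosine receptors to adenylyl cyclase 5.

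Levels are FPKM (fragments divided by transcript length and by the size of the library), a scale on which genes can be compared per length. The read depth behind them is unknown. Between 12275 and 13119 of 20340 coding genes were at 1 FPKM or more in each library. Defining genes of each region matched its label. In OB the mitral cell gene Eomes stood at 50.2 FPKM while STR had it at 0, the striatal receptor gene Drd2 was at 151 FPKM in STR and 3.75 in OB, and the granule cell gene Prox1 was at 89.5 FPKM in DG. For the ependymal gene Foxj1 the SVZ samples gave 61.0 and 23.5 FPKM and STR gave 1.95. The SVZ samples also held striatal genes, with Drd2 at 208 and 87.5 FPKM. In the abundance of transcripts under 200 bases, SVZ sample 2 and STR formed one library set (153 and 161 RefSeq transcripts at 1 FPKM or more) and SVZ sample 1, OB and DG another (14 to 24). SVZ sample 2 also correlated more with STR (Pearson r = 0.968 across 14029 genes, which are not independent replicates) than with SVZ sample 1 (0.943). The glycolysis gene Gapdh split the same way, with 563 FPKM in OB, 457 in SVZ sample 1 and 414 in DG, but 39.5 in STR and 32.4 in SVZ sample 2. OB and STR are thus in different sets. A bridged OB minus STR difference takes each region against the SVZ sample of its own set. It is therefore given for the 6 genes tested, and wherever it changes a count or the direction of a printed difference. Transcripts at 0 numbered 16725 in DG and 9564 to 10807 elsewhere.

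The cascade did not behave as a unit in the bulb. Omp, Stoml3 and Gng13 were highest in OB, Gnal and Ano2 were lowest there, Adcy3 was at a similar level in all regions, and the 3 channel genes and Rtp1 were under 1 FPKM in every library. Differences were taken on log2(FPKM + 1), which understates the change of low genes, and a difference of 2 log2 units (4-fold on that scale) was the size counted. Against STR, 3 of the 10 genes were at least that much higher in OB, beside 6.40% of the 13373 coding genes that reached 1 FPKM in OB or STR. In the other direction 2 of the 10 were at least that much higher in STR, beside 2.00% of coding genes. The median difference was 0.34 over the 10 genes and 0.53 over all coding genes. Only 6 of the 10 genes reached 1 FPKM in OB or STR.

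**Figure D1:**
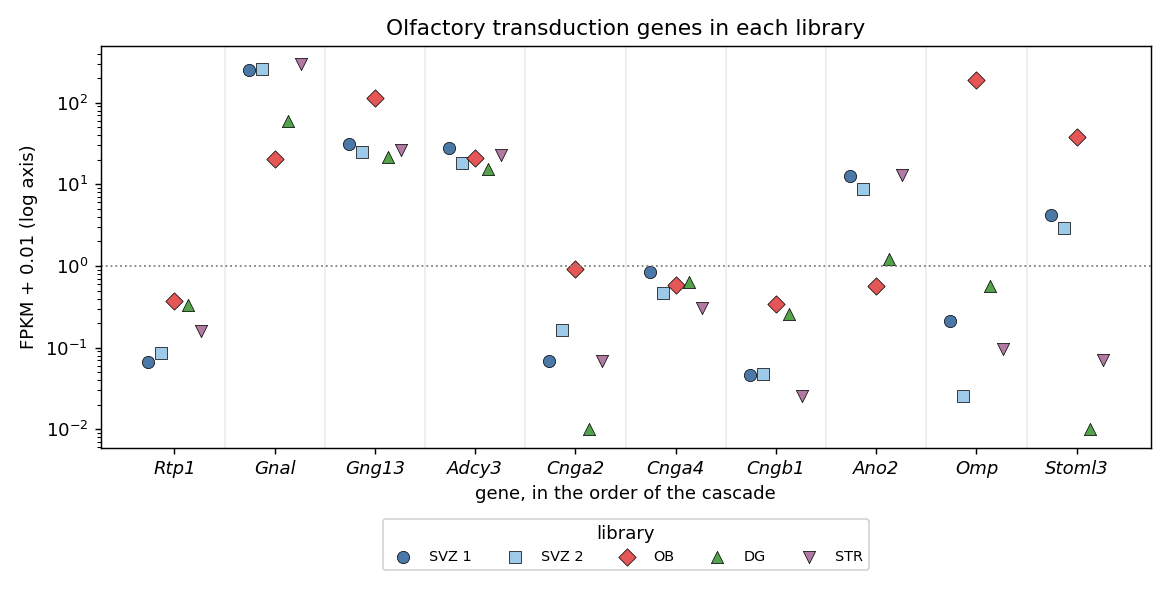
Level of each of the 10 genes in each of the 5 libraries, as FPKM + 0.01 on a log axis, with the accessory proteins last and a dotted line at 1 FPKM. Omp, Stoml3 and Gng13 have OB as their highest point, Gnal and Ano2 have OB as their lowest, and Rtp1, Cnga2, Cnga4 and Cngb1 stay under the line.

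Errors below are standard errors from limma (n = 2 for SVZ and n = 1 for OB, DG and STR), and they assume that OB, DG and STR vary as the SVZ samples do. They are drawn toward a trend over all genes. The SVZ samples lie in different library sets, so the set difference is part of these errors. With 1 residual degree of freedom, limma gave an adjusted p under 0.05 to 0% of the genes and lncRNA loci in each of the 6 pairs of regions, and so to 0 of the 10 genes. At an unadjusted p under 0.05, it gave 1540 higher and 608 lower of 15257 between OB and STR, 5 of the 6 tested genes of the cascade among them. After median ratio scaling the split was 1287 higher and 1160 lower. No difference of the 10 genes passed the test after adjustment. Errors are given for the pooled differences of the tested genes, and bridged, left-out and list-gene differences are sizes without an error. In bulk tissue, fewer cells of a type and less RNA per cell cannot be told apart.

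Omp encodes the olfactory marker protein, a cytoplasmic protein abundant in mature olfactory sensory neurons. It was at 187 FPKM in OB, at 0.202 and 0.0157 FPKM in the SVZ samples, at 0.567 in DG and at 0.0852 in STR. Only the OB library was above 1 FPKM, and Omp stood there at the 98.1 percentile of coding genes. The OB level was 7.44 ± 0.40 log2 units above STR (adjusted p = 0.201, limma), 7.41 ± 0.34 above SVZ (0.140) and 6.91 ± 0.40 above DG (0.154). The difference from STR ranked 4 from the top of 13373 coding genes. Against SVZ sample 1 alone, which shares a set with OB, the difference was 7.29, and the bridged OB minus STR difference was 7.20. The deposited locus, on mm9 chromosome 7 from 105270075 to 105334107, is shared with Capn5, a calpain gene, and in GENCODE M21 Omp lies within Capn5 on the same strand with 0 shared exon bases. Capn5 had another profile, with 11.4 FPKM in OB, 25.8 in DG and 4.73 in STR.

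Stoml3 encodes a stomatin-family membrane protein of the olfactory cilia. It was at 38.5 FPKM in OB, 4.25 and 2.88 in the SVZ samples, 0.0615 in STR and was listed at 0 in DG (mm9 chromosome 3, 53292715 to 53311574). The OB value lay above all others, and both SVZ values lay above STR and DG. The OB level was 9.06 times that of SVZ sample 1 and 13.4 times that of SVZ sample 2. On the log2 scale OB was 5.22 ± 0.46 above STR (adjusted p = 0.201), 5.31 ± 0.46 above DG (0.158) and 3.13 ± 0.40 above SVZ (0.153). The bridged OB minus STR difference was 4.78. SVZ was 2.09 ± 0.40 above STR (adjusted p = 0.693) and 2.18 ± 0.40 above DG (0.199). Stoml3 was the only 1 of the 10 genes at least 2 units higher in SVZ than in STR, beside 1.48% of coding genes, and 0 were higher in STR (0.142%). That count rests on SVZ sample 1: with SVZ sample 2 alone, in the set of STR, the difference was 1.87, and the SVZ minus DG difference 1.96. The ependymal genes Foxj1, Ccdc153, Tmem212 and Ak7 (4 of 4 at least 2 units above STR) summed to 192 and 81.1 FPKM in the SVZ samples and to 8.47 in OB and 2.20 in STR, and their part in the SVZ level of Stoml3 was not tested. Among the other stomatin-family genes, Stom, Stoml1 and Stoml2 were 1.14 to 1.67 units higher in OB than in STR, and 0.51 to 1.12 units when bridged. Of these 3, 0 reached 2 units, beside 6.40% of coding genes between OB and STR.

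Gng13 encodes a G protein gamma subunit found in olfactory sensory neurons and taste cells. It was at 115 FPKM in OB, 30.9 and 24.9 in the SVZ samples, 26.1 in STR and 21.7 in DG (mm9 chromosome 17, 25854117 to 25864360). The other 4 libraries lay close together and OB was 3.72 to 5.29 times their level. OB was 2.10 ± 0.47 above STR (adjusted p = 0.259), 2.01 ± 0.41 above SVZ (0.200) and 2.35 ± 0.47 above DG (0.235), so this gene was just inside the size counted. Without SVZ sample 2, OB was 1.86 above SVZ. After median ratio scaling, which brings the median difference of coding genes between OB and STR from 0.53 to 0.06, OB was 1.56 above STR, and bridged it was 1.80. Its transcript of 414 bases is short, and 399 of its 773 exon bases in GENCODE M21 are shared with Chtf18 on the opposite strand. Chtf18, a replication factor gene, was at 0.232 to 2.69 FPKM. Whether the libraries kept the strand is not stated in the labels.

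Against SVZ the same rule counted 3 genes higher in OB (3.59% of coding genes) and 2 higher in SVZ (2.07%), and against DG 3 higher in OB (3.67%) and 0 lower (1.46%). Omp, Stoml3 and Gng13 were those counted as higher in each of the 3 comparisons, which share the OB library. All 3 were at least 2 units above every other region, a size that 1.69% of 14029 coding genes reached. None of the 10 was that far below every other region (0.242%).

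**Figure D2:**
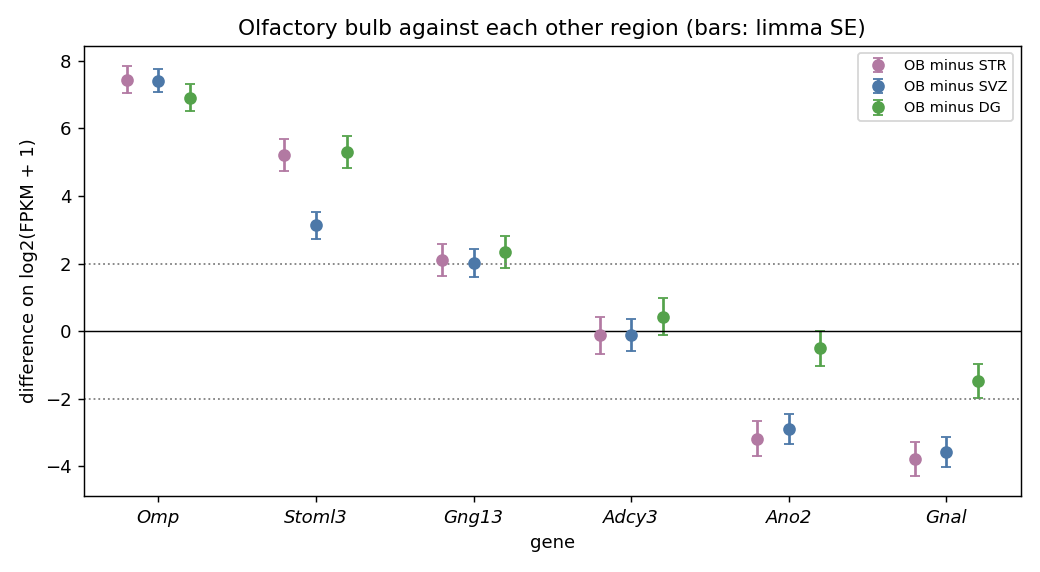
Difference of OB from STR, SVZ and DG on log2(FPKM + 1) for the 6 genes at 1 FPKM or more, with limma standard errors as bars and dotted lines at 2 units either way. Omp lies at 6.91 to 7.44 and Gnal at -3.78 to -1.47, and Adcy3 lies near 0.

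Gnal, the alpha subunit of Golf, had the opposite profile. It was at 296 FPKM in STR, 255 and 260 in the SVZ samples, 59.2 in DG and 20.6 in OB (mm9 chromosome 18, 67247990 to 67405484). The order was STR, SVZ, DG and OB, and STR and SVZ differed by less than the error (SVZ minus STR -0.20 ± 0.43, adjusted p = 0.971). STR was 14.3 times OB, and SVZ sample 1 was 12.3 times OB. On the log2 scale OB was below STR (-3.78 ± 0.50, adjusted p = 0.206) and below SVZ (-3.58 ± 0.43, 0.153), and it was -1.47 ± 0.50 from DG (0.402). STR was 2.30 ± 0.50 above DG (adjusted p = 0.295) and SVZ 2.10 ± 0.43 above DG (0.220). Within the set of SVZ sample 1, OB and DG, OB was -3.56 from SVZ, and the bridged OB minus STR difference was -3.75. Gnal stood at the 99.5 percentile of coding genes in STR, at 92.2 in DG and at 73.5 in OB, so it was still detected in every region.

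The table lists 2 Gnal transcripts, which in GENCODE M21 encode proteins of 381 residues (NM_010307) and 448 residues (NM_177137). The shorter form carried the regional difference, with 293 FPKM in STR, 250 and 258 in the SVZ samples, 51.8 in DG and 14.9 in OB. The longer form was at 3.11 FPKM in STR, 4.97 and 2.31 in the SVZ samples, 7.34 in DG and 5.72 in OB. It was therefore not highest where the gene as a whole was highest. Its values also sorted by library set, lower in SVZ sample 2 and STR than in SVZ sample 1, OB and DG. Region and set cannot be told apart in this order. Its share of Gnal was 27.7% in OB and 12.4% in DG, against 1.05% in STR and 1.95% and 0.887% in the SVZ samples. The split between forms that share most exons is an estimate by the authors' software, and 1 library each of OB, DG and STR gives it no error. In GENCODE M21, 852 of 11172 Gnal exon bases are shared with Mppe1 on the opposite strand, which was at 2.81 to 10.2 FPKM.

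Genes that act with Golf in the striatum were compared beside it. Of 8 listed genes, 7 were found (Ric8a was not found under that symbol). At least 2 units apart, 5 were lower in OB than in STR (2.00% of all coding genes) and 1 was higher (6.40%). The median difference was -4.22 against 0.53 for all coding genes. Gng7, the gamma subunit that pairs with the Golf alpha subunit in striatal neurons, was at 409 FPKM in STR, 680 and 309 in the SVZ samples, 156 in DG and 15.9 in OB. Adcy5, the main striatal cyclase, was at 315 FPKM in STR, 449 and 220 in the SVZ samples, 24.9 in DG and 48.4 in OB. The remaining lower genes were the dopamine receptor gene Drd1a (158 FPKM in STR and 1.204 in OB), the adenosine receptor gene Adora2a (142 and 6.68) and Ppp1r1b, the phosphatase inhibitor DARPP-32 (940 and 33.3). Gnas, the related Gs alpha subunit, ran the other way at 1132 FPKM in OB, 845 in DG, 223 in STR and 479 and 238 in the SVZ samples. Bridged, its OB minus STR difference went from 2.34 to 1.33, under the size counted. The beta subunit Gnb2 had 307 FPKM in OB, 122 in STR and 346 and 110 in the SVZ samples, so its difference of 1.32 changed sign to -0.33 when bridged. The 5 lower genes stayed lower by over 2 units when bridged. In DG, Gnal and Gng7 stood at 59.2 and 156 FPKM while Drd1a and Adora2a stood at 2.13 and 1.62. All 10 striatal projection neuron genes tested were at least 2 units lower in OB than in STR, beside 2.00% of coding genes. Drd1a, Adora2a and Ppp1r1b are in this list and also among the 5 lower genes above. The list also holds the enkephalin gene Penk (230 FPKM in OB and 1213 in STR). The part of cell composition in the Gnal difference was not tested. In SVZ the same 10 genes summed to 5133 and 4045 FPKM, against 4349 in STR.

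**Figure D3:**
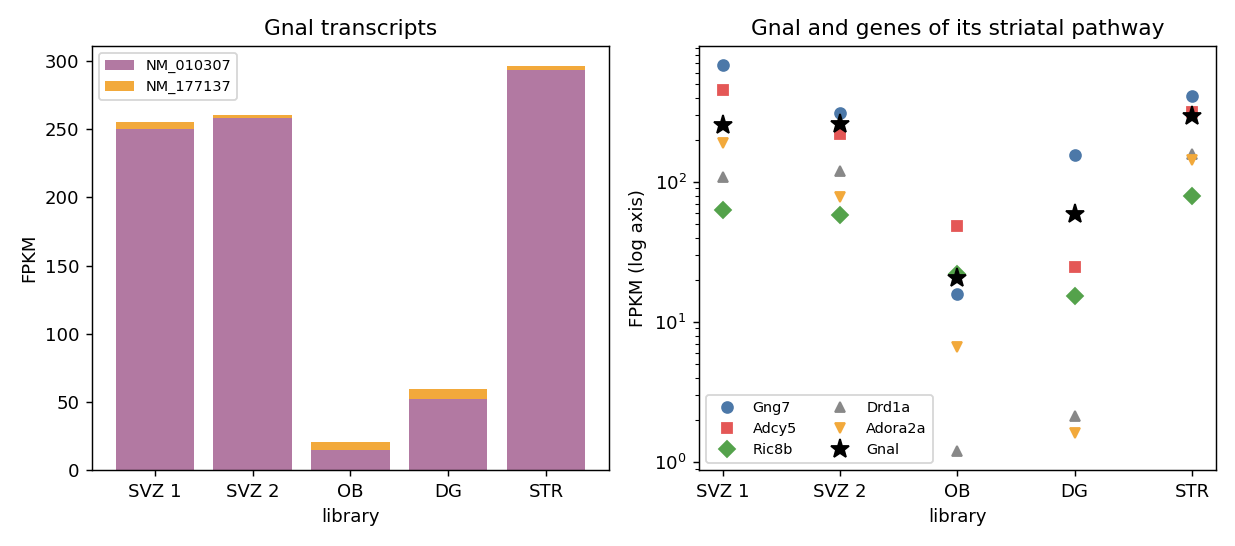
Left, FPKM of the 2 Gnal transcripts stacked by library, where STR reaches 296 and OB 20.6. Right, Gnal (stars) beside Gng7, Adcy5, Ric8b, Drd1a and Adora2a on a log axis, all lower in OB than in STR and both SVZ samples. The genes drawn are a selection, and Ric8b was named after its values were seen. Gnas and Gnb2, which were higher in OB than in STR, and Ppp1r1b are not drawn.

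Ano2, the calcium-activated chloride channel that enlarges the odour response, also went the way of Gnal. It was at 13.1 FPKM in STR, 12.8 and 8.76 in the SVZ samples, 1.22 in DG and 0.554 in OB (mm9 chromosome 6, 125640437 to 125990146). The STR and SVZ values lay together, well above DG and OB. OB was below STR (-3.18 ± 0.52, adjusted p = 0.215) and below SVZ (-2.90 ± 0.45, 0.165), and OB and DG were close (-0.51 ± 0.52, 0.859). The bridged OB minus STR difference was -3.68. STR was 2.67 ± 0.52 above DG (adjusted p = 0.280), and SVZ minus STR was -0.29 ± 0.45 (0.971). Gnal and Ano2 were the 2 of 10 genes counted as higher in STR than in DG, beside 2.44% of coding genes, and 0 were higher in DG (3.42%). Between SVZ and DG the count was 3 (Gnal, Ano2 and Stoml3), beside 2.90%, and 0 were higher in DG (2.12%). Of 7 other anoctamins, 6 reached 1 FPKM in OB or STR. At least 2 units apart, 0 were higher in OB (6.40% of all coding genes) and 1 was lower (2.00%). Ano4 had 14.9 FPKM in OB and 4.19 in STR, Ano6 20.2 and 6.94, Ano8 39.1 and 17.6, and Ano10 18.2 and 4.004. Their differences of 1.11 to 1.94 became 0.06 (Ano8) to 1.27 (Ano4) when bridged. Ano5 was at 0.188 FPKM or less. The lower gene was Ano3, at 119 FPKM in STR and 19.3 in OB, a difference of -2.56. Ano1, the nearest relative of Ano2, stood at 2.61 FPKM for OB and 0.739 for STR.

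Adcy3, the cyclase of the cascade and a protein of neuronal primary cilia in the brain, varied little. It reached 28.1 and 18.3 FPKM in the SVZ samples, 23.0 in STR, 21.04 in OB and 15.4 in DG (mm9 chromosome 12, 4133397 to 4240123). The SVZ samples spanned the OB and STR values. OB minus STR was -0.12 ± 0.55 (adjusted p = 0.901), OB minus SVZ -0.10 ± 0.47 (0.922) and OB minus DG 0.43 ± 0.55 (0.892). After median ratio scaling OB minus STR was -0.64, and bridged it was -0.72. Of its 3 transcripts, NM_138305 held 52.2% of the sum in OB, 69.8% in STR, 62.8% in DG and 53.99% and 81.2% in the SVZ samples. The samples of 1 region thus lay further apart than OB, DG and STR. The shares also sorted by library set, with SVZ sample 2 and STR above the other libraries. The opposite-strand gene Cenpo shares 1380 of 6246 Adcy3 exon bases in GENCODE M21 and was at 1.201 to 2.04 FPKM. Among the 8 other membrane cyclase genes, Adcy5 was lower in OB than in STR by over 2 units, beside 2.00% of coding genes. Adcy2 (75.4 FPKM in OB and 18.0 in STR), Adcy6 (27.6 and 4.52) and Adcy8 (31.5 and 1.57) were higher by over 2 units, beside 6.40%. Bridged, Adcy2 was at 1.44 and Adcy6 at 1.36, both under the size counted. Adcy1, a calcium-stimulated cyclase, was at 407 FPKM in DG, 38.8 in STR and 22.9 in OB. Adcy9 had 17.2 FPKM in OB and 19.7 in STR, and Adcy4 and Adcy7 lay at 0.922 to 2.37 FPKM in all libraries.

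The 3 genes of the cyclic nucleotide-gated channel were near the bottom of the scale. Cnga2, the main subunit, was at 0.923 FPKM in OB, 0.0585 and 0.154 in the SVZ samples, 0.0596 in STR and was listed at 0 in DG (mm9 chromosome X, 69237214 to 69255557). OB was the highest of the 5 values but was under 1 FPKM, and with a pseudocount of 0.1 in place of 1 FPKM its OB minus STR difference went from 0.86 to 2.68. Cnga4, a modulatory subunit, was at 0.577 FPKM in OB, 0.826 and 0.464 in the SVZ samples, 0.630 in DG and 0.300 in STR, with OB inside the range of the SVZ samples. The OB minus STR difference of Cnga4 changed sign when bridged, from 0.28 to -0.04. Cngb1, the subunit shared with rod photoreceptors, was at 0.337 FPKM in OB, 0.248 in DG, 0.0369 and 0.0379 in the SVZ samples and 0.0159 in STR. The table lists 1 Cngb1 transcript at a second locus, on chromosome 5, and it held 5.40% of the OB sum. Rtp1, which carries odorant receptors to the cell surface, was at 0.360 FPKM in OB, 0.321 in DG, 0.149 in STR and 0.0568 and 0.0768 in the SVZ samples. These 4 genes were left out of the limma tests, which needed 1 FPKM in at least 1 library of the pair.

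Other genes of the sensory neuron were mostly under the size counted. Of 14 further genes of the cilia cascade, 12 reached 1 FPKM in OB or STR, with a median of -0.03 against 0.53 for all coding genes. At least 2 units apart, 1 was higher in OB (6.40% of all coding genes) and 1 was lower (2.00%). The higher gene was the phosphodiesterase Pde4a, at 110 FPKM in OB and 22.1 in STR, whose difference of 2.26 fell under the size counted when bridged (1.67). The lower gene was Slc24a4, the sodium, calcium and potassium exchanger of the cilia, at 5.40 FPKM in OB and 32.1 in STR, with a difference of -2.37 and of -3.62 when bridged. Calm3 had the highest OB value of the list (804 FPKM, with 532 in STR) and Calm2 the highest STR value (1705, with 569 in OB), both calmodulin genes used by all neurons. Ric8b, a chaperone of the Golf alpha subunit that was named here after its values were seen, was at 79.2 FPKM in STR, 62.6 and 57.7 in the SVZ samples, 22.1 in OB and 15.4 in DG. Its OB minus STR difference was -1.80 and its STR minus DG difference 2.29. Rtp2, the close relative of Rtp1, was at 0.728 FPKM in OB, 0.102 and 0.0308 in the SVZ samples and at 0 in DG and STR.

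Of 12 other sensory neuron genes, 10 reached 1 FPKM in OB or STR, with a median of 0.15. At least 2 units apart, 0 were lower in OB (2.00% of all coding genes) and 1 was higher (6.40%). That gene was S100a5, whose protein binds calcium, with 409 FPKM in OB and 0 in each of the other 4 libraries. Gap43, a growth cone protein of many neurons, had the highest STR value (174 FPKM, with 131 in OB), and Kirrel2, an adhesion protein of sensory axons, had the most negative difference at -0.99 (2.64 FPKM in OB and 6.24 in STR). The sensory neuron transcription factor genes Ebf2 and Ebf3 were at 0.244 and 1.40 FPKM in OB and at 0.0447 and 0.165 in STR. Ebf1, of the same family, went the other way. It was at 2.33 FPKM in OB, 4.62 in STR and 7.22 and 5.52 in the SVZ samples. Its OB minus STR difference was -0.75, and -1.09 when bridged.

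Markers of the other cells of the nasal epithelium were near the floor of the OB library. Their 8 genes summed to 1.73 FPKM in OB, inside the range of 0.516 to 2.91 in the other libraries. The supporting cell genes Cyp2g1 and Cyp2a5 and the basal cell gene Krt5 were listed at 0 in OB, and Sec14l3 (0.0350 FPKM), Trpm5 (0.0304), Krt14 (0.106), Ascl3 (0.527) and Trp63 (1.03) were low. Of 6 vomeronasal and necklace neuron genes 0 were 2 units apart between OB and STR (6.40% of coding genes were higher in OB and 2.00% lower). The necklace cyclase gene Gucy2d was at 0.0454 FPKM in OB. The others, Trpc2 (6.56 FPKM in OB and 2.39 in STR), Pde2a (99.8 and 225), Car2 (101.5 and 84.9), Gnai2 (226 and 59.9) and Gnao1 (228 and 263), were seen in both regions. Ensheathing glia genes, which mark the cells that wrap the olfactory nerve, summed to 1570 FPKM in OB against 404 to 1020 elsewhere. At least 2 units above STR were 2 of 7, beside 6.40% of coding genes. Those were the Wnt antagonist Frzb (55.3 FPKM in OB and 0.575 in STR) and the lipid-binding protein Fabp7 (702 and 12.5). Other genes of the list were less distinct, with Sox10 at 46.2 FPKM in OB and 17.6 in STR, Ngfr at 3.68 and 0.839, S100b at 98.5 and 79.2, and Npy at 250.1 and 69.0. Of 8 bulb neuron genes 6 were at least 2 units above STR, beside 6.40% of coding genes. The 6 were Th (200.3 FPKM in OB), Calb2 (656), Eomes (50.2), Tbx21 (23.8), Cdhr1 (216) and Slc17a6 (10.9). Reln (84.6 FPKM in OB and 31.8 in STR) and Pcp4 (657 and 1587) were not. The part of these cells in the OB levels of Omp, Stoml3 and Gng13 was not tested. Of 5 primary cilium genes besides Adcy3, 1 was at least 2 units above STR, beside 6.40% of coding genes. It was the somatostatin receptor gene Sstr3 (24.5 FPKM in OB and 0.850 in STR). Arl13b (3.61 and 4.33), Ift88 (6.15 and 7.59), Htr6 (1.87 and 2.90) and Mchr1 (7.36 and 23.0) were lower in OB by less than that, although Mchr1 was at -2.22 when bridged.

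**Figure D4:**
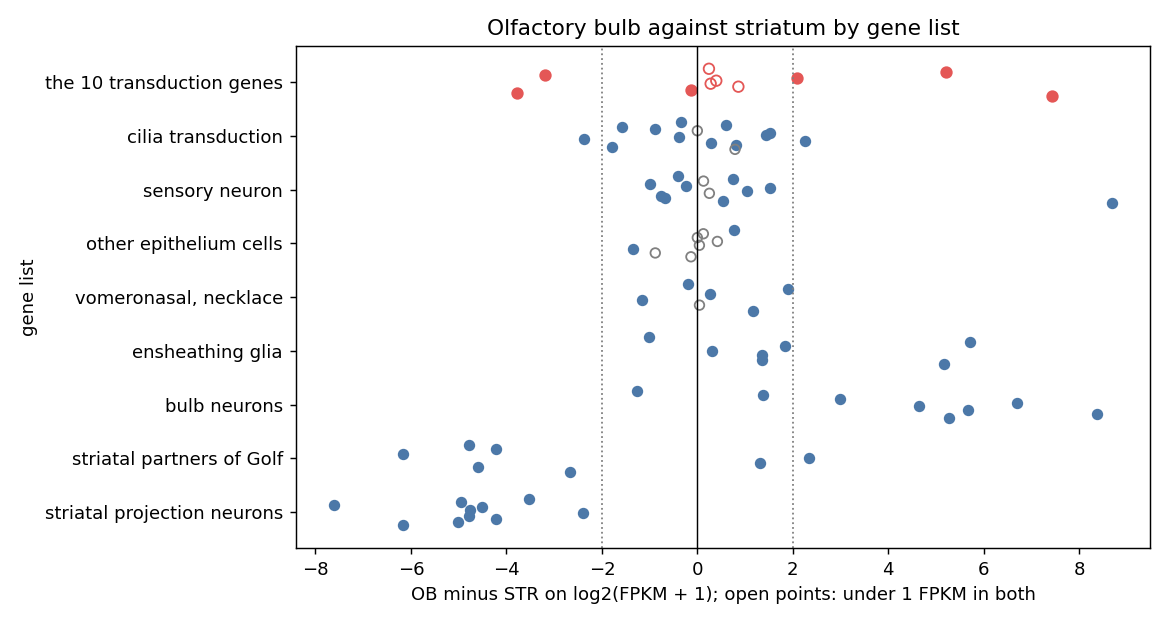
OB minus STR on log2(FPKM + 1) for every gene found in each of 8 lists, with the 10 cascade genes at the top and open points for genes under 1 FPKM in both libraries. The cascade genes spread from -3.78 (Gnal) to 7.44 (Omp), the striatal projection neuron genes all lie below -2, and S100a5 lies at 8.68 in the sensory neuron list.

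The coding genes most like Omp over the 5 libraries, by Euclidean distance on log2(FPKM + 1) among the 11424 coding genes that reached 5 FPKM somewhere, were S100a5 (distance 1.33), Ms4a15 (1.52), A230065H16Rik (1.84), the water channel gene Aqp1 (1.99) and Ly6g6e (2.02). Ms4a15 had 73.3 FPKM in OB and 0 elsewhere. All 5 had a Pearson r of 0.993 to 0.999 with Omp over 5 libraries. Most like Gnal were the inositol trisphosphate receptor gene Itpr1 (1.04), Phactr1 (1.07), Elmod1 (1.27), the striatal-enriched phosphatase Ptpn5 (1.33) and Ngef (1.51), with r of 0.923 to 0.996. Itpr1 was at 259 FPKM in STR, 168 and 182 in the SVZ samples, 73.4 in DG and 31.4 in OB. For Stoml3, looked up after its values were seen, the nearest gene was Sp8 (distance 0.45), a transcription factor of bulb interneurons and their precursors. Sp8 was at 45.4 FPKM in OB, 4.47 and 3.77 in the SVZ samples, 0.171 in DG and 0.0186 in STR.

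Promoter windows of 300 bases (250 before and 50 after the RefSeq start, build GRCm38.p6) were found for 7 of the 10 genes: Adcy3, Cnga2, Cnga4, Cngb1, Gng13, Ano2 and Stoml3. They were searched for the core of the palindrome bound by the Olf/Ebf family, transcription factors of olfactory sensory neurons, written CCCNNGGG, which reads the same on both strands. The first window of each of 3 genes is shown, because Gng13 and Stoml3 were high in OB and Cnga2 was under 1 FPKM. All are 5′ to 3′ on the plus strand, with matches in capitals, at chr17:25716922-25717221 for Gng13, chr3:53488457-53488756 for Stoml3 and chrX:71991599-71991898 for Cnga2.
Gng13: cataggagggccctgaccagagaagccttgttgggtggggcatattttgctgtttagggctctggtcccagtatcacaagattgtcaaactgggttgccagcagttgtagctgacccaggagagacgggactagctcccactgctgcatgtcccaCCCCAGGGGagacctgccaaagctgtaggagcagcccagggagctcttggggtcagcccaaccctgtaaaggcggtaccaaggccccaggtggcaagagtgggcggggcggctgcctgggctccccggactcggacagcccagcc
Stoml3: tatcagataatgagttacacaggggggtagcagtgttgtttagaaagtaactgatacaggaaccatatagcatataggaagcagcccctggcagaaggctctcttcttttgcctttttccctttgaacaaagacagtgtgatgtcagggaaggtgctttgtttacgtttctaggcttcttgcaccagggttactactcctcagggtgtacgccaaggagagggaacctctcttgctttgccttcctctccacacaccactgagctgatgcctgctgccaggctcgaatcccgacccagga
Cnga2: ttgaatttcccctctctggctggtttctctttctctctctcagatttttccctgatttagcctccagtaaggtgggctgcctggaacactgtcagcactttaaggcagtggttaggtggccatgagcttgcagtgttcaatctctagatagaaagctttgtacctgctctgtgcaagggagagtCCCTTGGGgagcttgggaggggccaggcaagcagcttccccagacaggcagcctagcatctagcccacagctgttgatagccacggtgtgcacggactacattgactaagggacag
Gng13 held a pair of overlapping matches in its first window, Cnga2 held 1 match and Stoml3 held 0. A match was also found in the windows of Cnga4 and Cngb1 and in the third of 3 windows of Ano2, and none in the windows of Adcy3. The core was thus in windows of 5 of the 7 genes, and over all genes 4159 of 27025 held it in at least 1 window. By window, 13.7% of 32851 held it. With a T added before the core (or an A after it) matches were left in Gng13, Cnga2 and Ano2, and 6.56% of all windows matched. With both letters added, 0 windows of the 7 genes matched, against 0.904% of all windows. Matches were thus found beside Gng13, which was high in OB, beside genes under 1 FPKM and beside Ano2, which was lowest in OB. Stoml3, also high in OB, had none, and Omp had no window to search.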

How the data were processed

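The authors deposited FPKM values of 37142 transcripts in 5 libraries, 28150 of them RefSeq transcripts and 8992 of a lncRNA catalogue. Per the submitters' processing notes the tools were CASAVA, TopHat 1.2.0 and Cufflinks 1.0.0 and the build mm9. A deposited BED file, whose score is constant, gave catalogue positions. Low FPKM values were near whole multiples of a best-fitting step (tolerance 0.1 step) in 24.3% to 34.3% of cases, against 20% for a step fixed by chance, so depth is unknown. FPKM of RefSeq transcripts were summed per symbol and compared as log2(FPKM + 1). limma 3.58.1 (R 4.3.3, trend) was fitted to all genes and lncRNA loci at 1 FPKM or more, with Benjamini-Hochberg adjustment over those at 1 FPKM or more in either region, and was tested on simulated data. P-values rest on the spread between the 2 SVZ samples, drawn toward a trend over all genes. For Gnal the SVZ samples had a log2 SD of 0.021, while the error of OB minus STR was 0.50. Loci are those of the deposited table on mm9, counted from 1. GENCODE M21 and the RefSeq windows, on GRCm38, gave exon sharing, protein lengths and sequences. The members and lists were chosen with earlier results of these data known. Named genes were the 10 genes, all members of lists of 8 or fewer genes, the extremes of longer lists, the 5 genes nearest to Omp and to Gnal, and lncRNA loci within 50 kb. The Ebf genes were named besides these. Some genes of the dentate and SVZ lists, used to check labels, are given by example. Values of a few listed genes are not reported here. Other settings were a pseudocount of 0.1, no filter, each SVZ sample left out, median ratio scaling, bridging through the SVZ, the highest transcript, added catalogue rows, a size of 1 unit and limma without a trend.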

Additional observations from a re-analysis of the deposited data

Results flagged for a closer look

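In the lncRNA catalogue, a difference under the size counted was flagged at a cut-off of 1 unit, 19816 bases from Adcy3. The share of all lncRNA loci past that cut-off was not counted. The locus XLOC_004939, on mm9 chromosome 12 from 4112842 to 4113580, was at 6.12 FPKM in DG and 2.05 in the control tissue STR, a difference of 1.22 on log2(FPKM + 1). It was at 1.92 FPKM in OB and 1.53 and 3.09 in the SVZ samples, so the SVZ samples lay on either side of STR. DG had 1 library, and DG and STR are in different library sets. Of 6 catalogue loci within 50 kb of the 10 genes, 3 reached 1 FPKM. The others were XLOC_004940 beside Adcy3, at 2.33 to 4.87 FPKM, and XLOC_021779 beside Omp. XLOC_021779 was at 1.36 FPKM in SVZ sample 2 and 1.008 in STR. It was at 0.164 FPKM in SVZ sample 1 and at 0 in OB and DG, a split by library set.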

How the results depend on the processing

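Of 69 alternative values for 8 results, 66 held. Counts of genes past the size held within 1.5 times the reported value, and the limma count if equal. Limma differences held with the same direction and side of an adjusted p of 0.05. Left-out and bridged differences held with the same direction and a shift within the SD of the SVZ pair. The other 3 kept their direction and stayed past 2 units, but shifted by more than that SD. They came from bridging through the SVZ samples, which shifts an OB or DG against STR difference by SVZ 1 minus SVZ 2. That is always more than the SD of that pair, so the shift says nothing particular to these genes. Omp, OB minus STR, became 7.20, Gnal, OB minus STR, -3.75, and Gnal, STR minus DG, 2.27. Part of the 66 could not move. Leaving out an SVZ sample cannot change a difference among OB, DG and STR, and bridging cannot change OB minus DG. Removing the filter or the trend leaves the size of a difference as it was. With a pseudocount of 0.1 the count of genes higher in OB was 4 in place of 3 against each region, with Cnga2 added. Gng13 fell under the size counted against STR and SVZ after scaling and bridging, and against SVZ without SVZ replicate 2, which left 2 genes. Without either SVZ sample Gnal, SVZ minus DG, ranged from 2.09 to 2.12. limma called 0 of the 10 genes in every setting that could be fitted. Without an SVZ sample, or bridged, it had no residual degrees of freedom and was not run. No paired analysis was possible because only SVZ has 2 numbered samples. Unknown depth leaves values under 1 FPKM without an interval.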
